A study of Mus musculus with 10 samples.

Results

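The alpha, pi and theta class glutathione transferases of mouse liver were followed here as 9 genes, taken by name from a table of read counts per Entrez gene: Gsta1, Gsta2, Gsta3 and Gsta4 (alpha), Gstp1 and Gstp2 (pi), and Gstt1, Gstt2 and Gstt3 (theta). All 9 of 9 were among the 16647 listed genes, and all 9 reached 60 counts summed over the livers, the level asked of a gene before testing. Of the 9, Gstt3 rose in livers of MI-883-treated mice, by 1.94-fold, with every treated liver above every control liver. The pi class genes Gstp1 and Gstp2 averaged 1.47-fold and 1.65-fold higher but did not pass the main test, and Gsta1 averaged 2.99-fold higher over control livers that differed 12.2-fold among themselves. Gsta3, the most abundant of the 9 per length, averaged 0.976 of its control level.

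Total RNA of 10 livers was sequenced, 5 from mice given MI-883, an agonist of the human constitutive androstane receptor (CAR) and antagonist of the human pregnane X receptor (PXR), and 5 from vehicle controls. All were male humanized PXR-CAR-CYP3A4/3A7 mice, a model described as carrying human loci in place of the mouse receptor genes and the mouse Cyp3a cluster, aged 10 to 15 weeks at the start. All were fed a high-fat diet for 8 weeks and then, still on that diet, gavaged 3 times per week for 4 weeks with 5 mg/kg MI-883 or with the vehicle alone (DMSO, PEG300 and corn oil). The question was how these transcripts differ, class by class, between MI-883 and control livers. Each liver came from another animal, and the results hold for this humanized model, 1 dose and 1 sex.

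Glutathione transferases are dimeric cytosolic enzymes that join the thiol of glutathione to electrophilic centres of drugs, carcinogens and products of lipid peroxidation. The conjugates leave the cell through ABC transporters and are trimmed to mercapturates. In mouse liver the alpha, mu and pi classes are the abundant ones, several members are known to be induced by xenobiotics through antioxidant and xenobiotic response elements, and theta class enzymes differ in using a serine rather than a tyrosine at the active site.

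Libraries held 24014461 to 36221514 counted reads in control and 23513665 to 28349963 in MI-883 livers. Over the whole table, 136 of 13219 tested genes passed the main test, a Benjamini-Hochberg adjusted P under 0.05 in the quasi-likelihood fit of edgeR, 101 higher and 35 lower. Cyp2b10, the classical CAR target, was at 36.5 CPM (counts scaled to library size by TMM) in control and 1019 CPM in MI-883 livers on average, a log2 difference of 4.80 (SE 0.25). Reads were still assigned to the mouse receptor genes, with 279 to 469 counts per liver for Nr1i2 (PXR) and 129 to 297 for Nr1i3 (CAR). Of the mouse Cyp3a genes checked, Cyp3a11 and Cyp3a25 had at most 1 and 3 counts in a liver, Cyp3a57 33 to 133 and Cyp3a59 7 to 406, while Cyp3a13 had 5423 to 9741. Markers of hepatocytes were summed for each liver and covered 82188 to 95634 CPM in control livers and 70214 to 83555 in MI-883 livers. Of the 10 markers 0 passed edgeR, 3 had an unadjusted P under 0.05, 1 (Apoa1) was called by DESeq2, and all 10 log2 differences were negative. In bulk liver, fewer cells of a type, less RNA per cell and changes of single genes cannot be told apart by such a sum.

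Promoter sequences show how alike the pairs are whose values are compared below. RefSeq (GRCm38.p6) gave a window of 250 bases before to 50 bases after the start for 7 of the 9 genes, all but Gsta4 and Gstt2. Both strands were searched for 4 motifs: the antioxidant response element core TGACNNNGC, the xenobiotic response element TNGCGTG, the AP-1 site TGANTCA, which reads the same on both strands, and the nuclear receptor half-site AGGTCA. Among 32851 promoters of the table these were found in 12.4%, 5.07%, 7.81% and 16.3%, respectively. The pi class pair is shown because its members are near copies that averaged higher in the same livers, and both hold the same AP-1 letters (capitals), 74 bases before the start of Gstp1 and 89 before that of Gstp2. Gstp1 is read from chr19:4037863-4038162 and Gstp2 from chr19:4042172-4042471, both on the minus strand.
Gstp1: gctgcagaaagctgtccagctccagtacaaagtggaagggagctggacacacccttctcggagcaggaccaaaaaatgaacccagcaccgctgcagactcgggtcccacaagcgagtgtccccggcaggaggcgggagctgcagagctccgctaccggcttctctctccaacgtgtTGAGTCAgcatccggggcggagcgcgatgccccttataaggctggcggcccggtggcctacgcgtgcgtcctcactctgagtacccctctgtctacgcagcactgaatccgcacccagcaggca
Gstp2: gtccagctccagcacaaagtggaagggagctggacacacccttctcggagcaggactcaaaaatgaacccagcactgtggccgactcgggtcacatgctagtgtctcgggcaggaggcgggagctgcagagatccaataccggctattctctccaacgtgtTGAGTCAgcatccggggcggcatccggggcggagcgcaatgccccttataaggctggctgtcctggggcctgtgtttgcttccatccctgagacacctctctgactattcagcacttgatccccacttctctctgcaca
The 2 windows had 87.5% identical bases over 281 aligned. Gsta1 and Gsta2 are shown because they lie close together, share most of their sequence and yet differed in their values. Capitals mark the xenobiotic response element letters 9 bases before the start of Gsta2. Gsta1 is read from chr9:78230419-78230718 on the plus strand and Gsta2 from chr9:78347096-78347395 on the minus strand.
Gsta1: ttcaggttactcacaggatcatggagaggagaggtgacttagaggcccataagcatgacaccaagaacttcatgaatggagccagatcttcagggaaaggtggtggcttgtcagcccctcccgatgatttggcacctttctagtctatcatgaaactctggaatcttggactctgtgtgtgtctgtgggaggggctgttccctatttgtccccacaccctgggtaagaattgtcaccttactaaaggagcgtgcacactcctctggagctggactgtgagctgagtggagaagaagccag
Gsta2: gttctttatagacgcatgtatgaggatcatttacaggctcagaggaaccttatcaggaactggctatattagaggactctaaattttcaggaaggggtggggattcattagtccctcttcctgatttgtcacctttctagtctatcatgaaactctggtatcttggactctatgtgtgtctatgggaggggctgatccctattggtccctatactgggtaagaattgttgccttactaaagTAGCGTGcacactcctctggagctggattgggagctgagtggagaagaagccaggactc
These windows had 83.8% identical bases over 284 aligned, and none of the 4 motifs was spelled in that of Gsta1. Gstt3 is shown as the member that passed the test. Of its 2 listed starts, the window of the outer one is chr10:75781373-75781672 on the minus strand.
Gstt3: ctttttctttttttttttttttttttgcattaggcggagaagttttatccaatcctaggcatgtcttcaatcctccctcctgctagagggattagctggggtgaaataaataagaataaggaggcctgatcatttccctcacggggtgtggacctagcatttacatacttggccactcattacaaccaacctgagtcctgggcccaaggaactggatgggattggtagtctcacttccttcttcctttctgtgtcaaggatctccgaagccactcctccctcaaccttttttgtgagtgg
None of the 4 motifs was spelled in either window of Gstt3 or in that of Gstt1, and that of Gsta3 held TGACATTGC, beginning 121 bases before the start. The half-site was in none of the 7. A match is a description of letters, and a missing match says only that these letters are not in this window.

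Levels were compared between genes per kilobase of transcript. In control livers Gsta3 led with a level of 1353 ± 156 CPM per kb (SD, n = 5 livers here and below), followed by Gstp1 with 639 ± 143, Gstt1 with 394 ± 30.0 and Gsta4 with 131 ± 31.1. Gstt3 with 65.0 ± 12.5, Gstt2 with 55.0 ± 8.77 and Gsta2 with 44.5 ± 21.5 came next, and these neighbours overlapped within their SDs. Gsta1 with 15.6 ± 15.4 and Gstp2 with 12.6 ± 3.35 CPM per kb were lowest and could not be ordered. In MI-883 livers the level of Gstp1 was 937 ± 185 CPM per kb beside 1320 ± 199 for Gsta3, and Gstt3 with 126 ± 32.2 lay beside Gsta4 with 161 ± 21.7. Gsta2 with 48.7 ± 6.95, Gsta1 with 47.3 ± 9.16 and Gstt2 with 45.5 ± 6.54 CPM per kb overlapped there, above Gstp2 with 20.8 ± 5.46. The value of Gstt2 rests on a transcript of 2254 bases, the longest of the 9, and shorter forms would give it a higher level per length.

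By edgeR 1 of the 9 genes, Gstt3, was called, beside 1.03% of all tested genes. By the Wald test of DESeq2, 3 of the 9 (Gstp1, Gstp2 and Gstt3, each higher) were called, beside 3.50% of all tested genes. In 1 of 9, again Gstt3, all MI-883 livers lay above all control livers, as they did in 2.05% of tested genes. The median log2 difference was 0.29 over the 9 genes and 0.0045 over all tested genes. Of the 9, 7 were positive and 2 negative, beside 6744 and 6475 of the 13219 tested genes. An unadjusted P under 0.05 by edgeR was reached by 1 of 4 alpha, 2 of 2 pi and 2 of 3 theta genes. Over all tested genes it was reached by 15.6%.

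**Figure D1:**
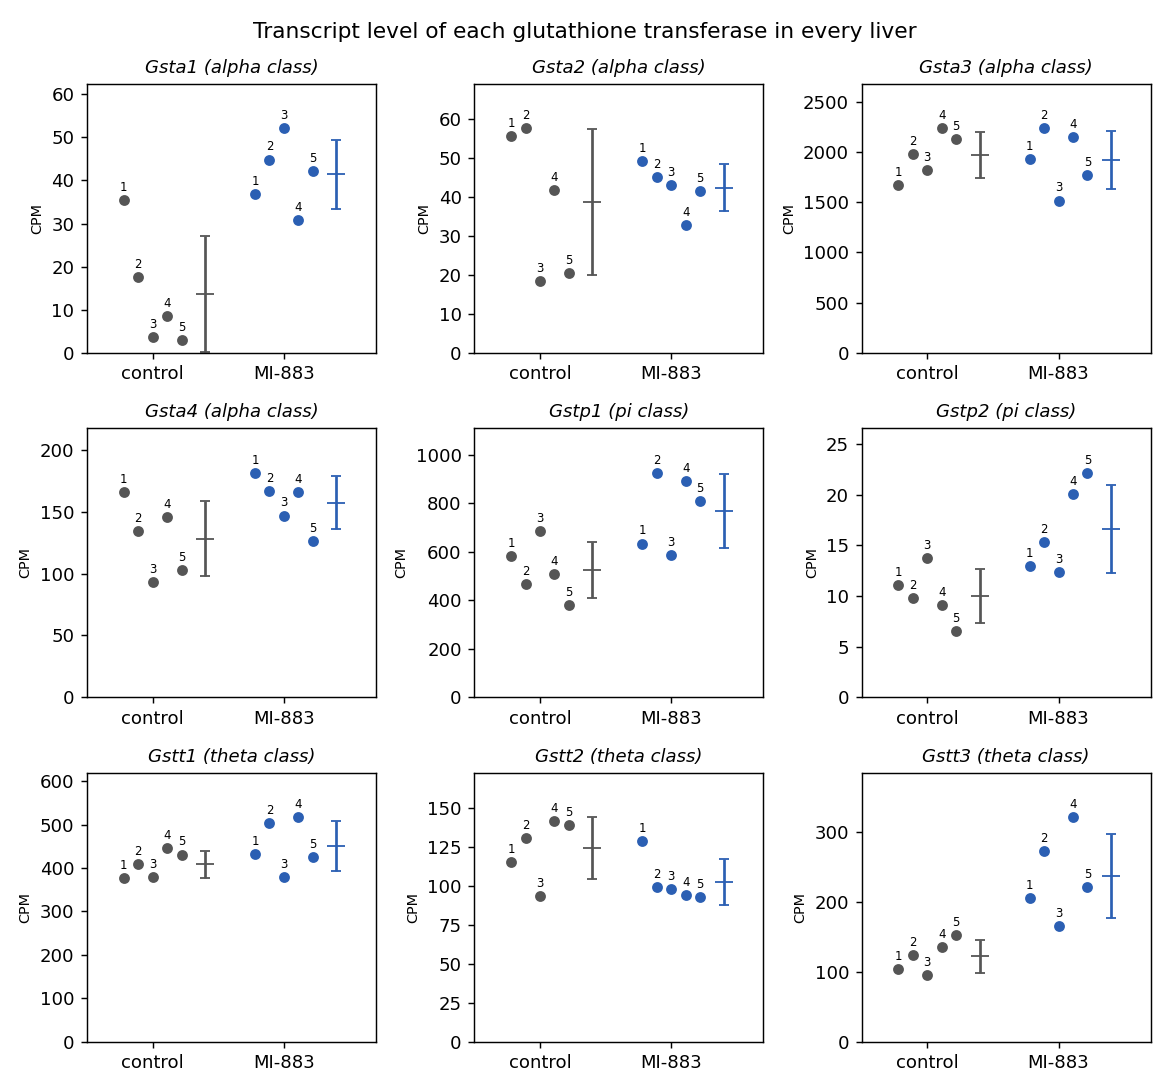
Transcript level (CPM) of each gene in every liver, 1 panel per gene with its own axis from 0. Points are livers numbered by replicate (grey control, blue MI-883), bars are mean ± SD of 5 livers, and Gstt3 is the panel in which the groups do not overlap.

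**Figure D2:**
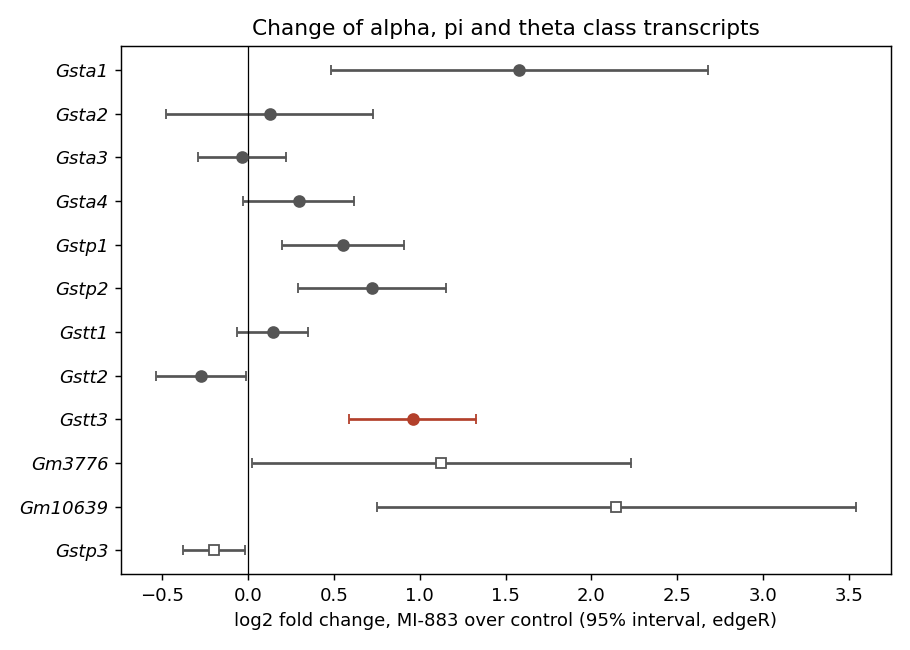
Log2 fold change of MI-883 over control livers with its 95% interval from edgeR for the 9 genes (circles) and 3 further genes of the alpha and pi classes (open squares). Red marks Gstt3, the member with an adjusted P under 0.05, and Gm10639, Gm3776 and Gsta1 have the widest intervals.

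The theta class held the 1 gene that rose. Gstt3 (Entrez 103140, minus strand, chr10:75774117-75781422), a theta class transferase, read 104, 124, 94.9, 136 and 152 CPM in control livers 1 to 5 and 205, 274, 166, 321 and 221 CPM in MI-883 livers 1 to 5. The lowest MI-883 liver, replicate 3, was above the highest control liver, replicate 5. The mean went from 122 ± 23.4 to 237 ± 60.6 CPM, a log2 difference of 0.96 (SE 0.17, 95% interval 0.59 to 1.33), with an adjusted P of 0.0197 by edgeR and 9.5e-06 by DESeq2. Permuting the livers exactly (two-sided, on mean log2 CPM) gave an exact P of 0.00794, the smallest that 5 against 5 livers allow. With edgeR the adjusted P was 0.0513 without control replicate 3 and 0.0572 without MI-883 replicate 2, at log2 differences of 0.88 and 0.90. Of the 100-base stretches of its transcript, 23.9% also occur in Gm20441, a model in GENCODE M21 that joins Gstt3 to the neighbouring Ddt and was not among the tested genes.

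Its neighbours in the same cluster did not pass. Gstt1 (Entrez 14871, minus strand, chr10:75783813-75798584), which conjugates small halogenated alkanes, read 378, 410, 378, 447 and 431 CPM in the controls and 433, 505, 379, 517 and 425 CPM in the treated livers. Both ranges overlapped broadly and the means were 409 ± 31.1 and 452 ± 57.7 CPM, a log2 difference of 0.14 (SE 0.095, interval -0.063 to 0.35, adjusted P = 0.491 by edgeR). Gstt2 (Entrez 14872, minus strand, chr10:75831842-75837419), a theta enzyme known for acting on aryl sulfate esters, read 115, 131, 93.7, 141 and 139 CPM in the controls against 128, 99.0, 98.0, 93.9 and 93.0 CPM. All 5 treated livers were below the control median, 131 CPM, but only 1 was below the lowest control. Its log2 difference was -0.28 (SE 0.12, interval -0.54 to -0.015), with an adjusted P of 0.292 by edgeR and an exact permutation P of 0.0952.

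Within each liver, the balance of the theta genes differed between the groups. The ratio of counts of Gstt1 to Gstt3 was 2.83 to 3.99 in control and 1.61 to 2.28 in MI-883 livers, and the ratio of Gstt2 to Gstt3 was 0.910 to 1.11 and 0.293 to 0.626, neither with any overlap. The log2 ratios differed by -0.81 (95% interval -1.08 to -0.54) and by -1.21 (-1.72 to -0.69), each with an exact permutation P of 0.00794 and an adjusted P of 0.0265 over 10 within-class pairs. Gstt1 over Gstt2 differed by 0.41 (0.037 to 0.75, exact permutation P = 0.0317, adjusted 0.0529) and the groups overlapped. Per length, Gstt3 made up 12.5% ± 1.32 of the theta class in control and 20.5% ± 2.47 in MI-883 livers, and Gstt1 76.8% ± 2.00 and 71.8% ± 1.22. The summed level of the class was 655 ± 71.8 CPM in control livers and 792 ± 114 in MI-883 livers, 1.21 times as much, with overlapping livers.

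**Figure D3:**
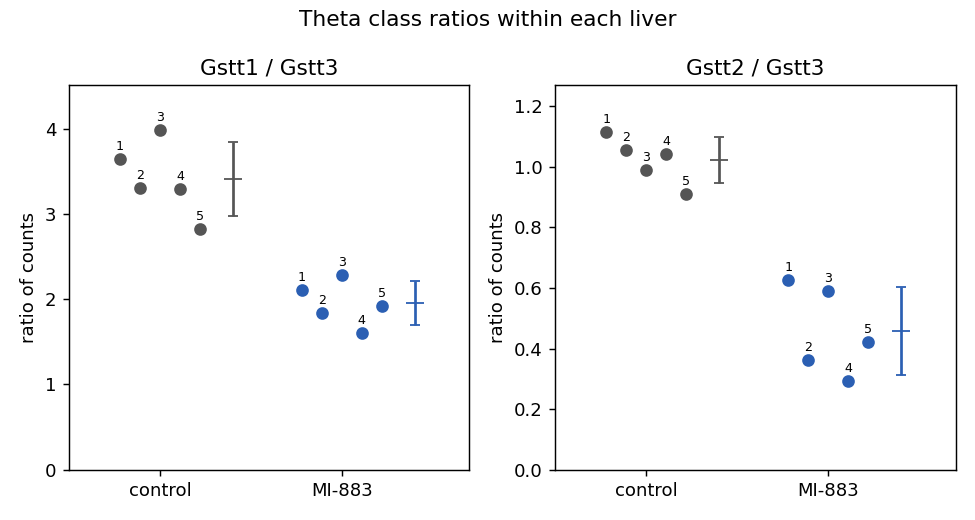
Ratio of counts of Gstt1 to Gstt3 (left) and of Gstt2 to Gstt3 (right) within each liver, with mean ± SD of 5 livers beside the points and both axes from 0. Control livers lie at 2.83 to 3.99 and 0.910 to 1.11, and MI-883 livers lie lower without overlap, at 1.61 to 2.28 and 0.293 to 0.626.

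In the pi class, both genes averaged higher in the same livers. Gstp1 (Entrez 14870, minus strand, chr19:4035411-4037912), the main pi class enzyme of mouse hepatocytes, read 583, 465, 687, 508 and 379 CPM in control livers and 634, 926, 586, 892 and 810 in MI-883 livers. All 5 treated livers were above the control median of 508 CPM and 3 were above the highest control, while replicates 1 and 3 lay below it. The means of 525 ± 117 and 770 ± 152 CPM gave a log2 difference of 0.55 (SE 0.17, interval 0.20 to 0.91), with an adjusted P of 0.146 by edgeR and 0.0286 by DESeq2 and an exact permutation P of 0.0317.

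Gstp2 (Entrez 14869, minus strand, chr19:4040288-4042221), a close copy 2376 bases away, read 11.1, 9.81, 13.8, 9.09 and 6.49 CPM in control livers and 13.0, 15.4, 12.4, 20.1 and 22.2 in MI-883 livers. Here too replicates 1 and 3 of the treated livers were those within the control range. The log2 difference was 0.72 (SE 0.20, interval 0.29 to 1.15), with an adjusted P of 0.115 by edgeR and 0.0174 by DESeq2 and an exact permutation P of 0.0238. The transcripts of the pair had 96.2% identical bases over 785 aligned, and 52.8% of the 100-base stretches of Gstp1 and 54.6% of those of Gstp2 occur in the other. How reads that match both were counted is not given in the sources used here, so the split between them is uncertain. Added into 1 gene, they gave a log2 difference of 0.56 (adjusted P = 0.144 by edgeR). The ratio of Gstp1 to Gstp2 was 47.3 to 58.3 in control and 36.5 to 60.2 in MI-883 livers, a log2 difference of -0.17 (interval -0.45 to 0.11, exact permutation P = 0.238, adjusted 0.298). The class summed to 535 ± 120 and 786 ± 155 CPM, 1.47 times as much in MI-883 livers, with overlap.

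Gstp3, a further pi class gene (chr19:4057470-4059605) that shares no 100-base stretch with another, read 21.5 ± 2.12 CPM in control livers and 18.7 ± 1.58 in MI-883 livers. Its log2 difference was -0.20 (SE 0.084, adjusted P = 0.28 by edgeR), on the other side of 0 from its neighbours, and the difference from them was not tested.

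Gsta1 and Gsta2 of the alpha class varied most of the 9 genes among the control livers. Gsta1 (Entrez 14857, plus strand, chr9:78230669-78242683), an inducible enzyme with peroxidase activity toward lipid hydroperoxides, read 35.4, 17.7, 3.64, 8.54 and 2.90 CPM in control livers 1 to 5 and 37.0, 44.9, 52.1, 30.9 and 42.3 CPM in MI-883 livers. Control replicate 1 lay among the treated livers, and all 5 treated livers were above the other 4 controls. The counts behind the extremes were 66 in control replicate 5 and 1407 in MI-883 replicate 3. The coefficient of variation was 99.2% over the controls, above that of 99.9% of 11613 genes with at least 1 CPM, and 19.4% over the treated livers. Means of 13.6 ± 13.5 and 41.4 ± 8.02 CPM gave a log2 difference of 1.58 (SE 0.51, interval 0.48 to 2.68), an adjusted P of 0.168 by edgeR and 0.152 by DESeq2 and an exact permutation P of 0.0159. Without control replicate 1 the log2 difference was 2.31 and the adjusted P of edgeR 0.0174, and with 1 surrogate variable in the fit they were 1.54 and 0.0376. The other 17 of 19 alternatives left the adjusted P of Gsta1 above 0.05, at up to 0.349 by edgeR.

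Gsta2 (Entrez 14858, minus strand, chr9:78331018-78347192), the other inducible alpha subunit, read 55.5, 57.6, 18.3, 41.7 and 20.5 CPM in control livers and 49.2, 45.1, 43.2, 32.8 and 41.6 in MI-883 livers. Control replicates 3 and 5 were lowest again, and the treated livers lay inside the control range. Means of 38.7 ± 18.7 and 42.4 ± 6.05 CPM differed by 0.12 on the log2 scale (SE 0.28, interval -0.48 to 0.73, adjusted P = 0.860 by edgeR). The sign of this difference turned without control replicate 3 (-0.052) and without control replicate 5 (-0.034).

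Gsta1 thus averaged higher relative to Gsta2 in the treated livers. The ratio of counts of Gsta1 to Gsta2 was 0.637, 0.307, 0.199, 0.205 and 0.142 in the controls and 0.752, 0.994, 1.21, 0.942 and 1.02 in the treated livers, without overlap. The log2 ratio differed by 1.91 (interval 0.93 to 2.69), with an exact permutation P of 0.00794 and an adjusted P of 0.0265, which became 0.0529 when any 1 MI-883 liver was left out. Gsta1 over Gsta3 (2.23) and over Gsta4 (1.87) missed the threshold, each with an adjusted P of 0.0529 after the exact permutation test, and the groups overlapped through control replicate 1. The 2 transcripts had 97.2% identical bases over 870 aligned. Of the 100-base stretches of Gsta1, 71.3% occur in Gm3776 and 19.8% in Gsta2, and of those of Gsta2, 24.4% occur in Gm10639, so that counts of these 4 genes are uncertain. Gsta1 and Gsta2 added together read 52.4 ± 30.7 and 83.8 ± 12.0 CPM, a log2 difference of 0.67 (adjusted P = 0.345 by edgeR), and all 4 added gave 0.72 (adjusted P = 0.33 by edgeR).

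**Figure D4:**
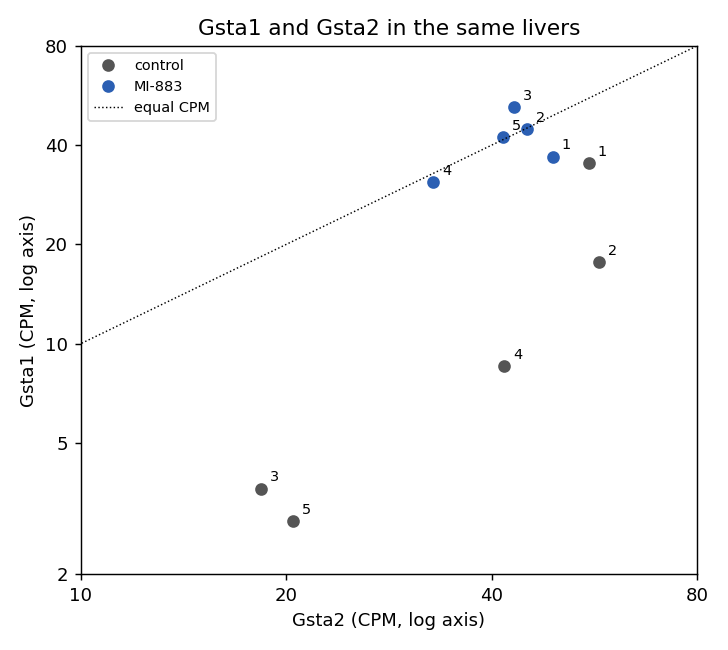
Gsta1 against Gsta2 (CPM, both axes logarithmic) in each of 10 livers, numbered by replicate (grey control, blue MI-883), with a dotted line at equal CPM. MI-883 livers lie near the line, at ratios of 0.752 to 1.21, and control livers lie below it, with replicates 3 and 5 lowest on both axes.

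Gm3776 and Gm10639, further alpha class genes of the chr9 cluster, were scarce. Gm3776 read 0.702 to 8.32 CPM in control livers and 3.35 to 11.2 in MI-883 livers, a log2 difference of 1.13 (SE 0.51, adjusted P = 0.312 by edgeR), and control replicates 3 and 5 were the lowest of all 10. Gm10639 had 0 to 19 counts in control and 5 to 66 in MI-883 livers, a log2 difference of 2.15 (SE 0.64) with an adjusted P of 0.148 by edgeR and 0.0254 by DESeq2. Gstt4 of the theta class had at most 2 counts in a liver and was not tested. The symbols Gsta5, Gsta13 and Gstp-ps matched no listed gene, and whether these genes are listed under other names was not checked.

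Gsta4 (Entrez 14860, plus strand, chr9:78191966-78209349), which detoxifies 4-hydroxynonenal and related products of lipid peroxidation, read 166, 135, 92.9, 146 and 103 CPM in control livers and 181, 167, 147, 166 and 126 in MI-883 livers. Its transcript shares no 100-base stretch with another gene, and control replicates 3 and 5 were the lowest of the 10 livers here as well. The log2 difference was 0.29 (SE 0.15, interval -0.030 to 0.62, adjusted P = 0.364 by edgeR). Leaving both of those control livers out, a choice made after their values were seen, gave log2 differences of 1.01 for Gsta1 (adjusted P = 0.349 by edgeR), -0.28 for Gsta2 and 0.081 for Gsta4, while Gstt3 stayed at 0.97 (adjusted P = 0.0735).

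Gsta3 (Entrez 14859, plus strand, chr1:21240565-21265575), known in mice for conjugating the epoxide of aflatoxin B1, lies apart from the chr9 cluster. It read 1677, 1982, 1824, 2237 and 2134 CPM in control livers and 1936, 2237, 1518, 2149 and 1776 in MI-883 livers. The groups overlapped almost wholly, and the log2 difference was -0.035 (SE 0.12, interval -0.29 to 0.22, adjusted P = 0.913 by edgeR), an interval that holds changes of either sign. Per length, Gsta3 made up 87.5% ± 4.48 of the 4 alpha genes in control and 83.5% ± 2.31 in MI-883 livers, and Gsta1 1.04% ± 1.09 and 3.09% ± 0.952. The alpha class summed to 2152 ± 215 and 2164 ± 296 CPM.

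Differences between livers of the same group ran in 3 sets. With the group mean taken off, the log2 CPM of Gsta1, Gsta2 and Gsta4 went together (Pearson r of 0.91, 0.73 and 0.79 for the 3 pairs over 10 livers), those of Gsta3, Gstt1 and Gstt3 did (0.96, 0.88 and 0.95), and those of Gstp1 and Gstp2 did (0.85). Gstt2 went against Gstp1 (-0.71) and Gstp2 (-0.75). These values share libraries and, for the alike genes, reads. The 3 genes most like Gsta3 were Echs1, Iah1 and Mcrip2 (r = 0.97 each), those most like Gstt1 were Acat1, Mcrip2 and Pgk1 (0.98, 0.97 and 0.96), and those most like Gstp1 were Mfsd11, Bsdc1 and Fam122a (0.90, 0.89 and 0.89). Chosen after its values were seen, Gsta1 was most like Gstm1 (0.96) and Gstm3 (0.94), 2 mu class transferases, and then Scamp5 (0.93).

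Other genes of the glutathione pathway were read against all tested genes, of which 1.03% were called by edgeR and 15.6% had an unadjusted P under 0.05. Of 13 further glutathione transferases tested, 4 rose and none fell, all 4 of the mu class, with log2 differences of 1.08 for Gstm1, 1.55 for Gstm2, 3.24 for Gstm3 and 0.59 for Gstm4. DESeq2 called Gstm6 as well (0.38, adjusted P = 0.0149). None of the 16 tested genes of glutathione supply passed edgeR, and 6 had an unadjusted P under 0.05. Of the 16, 9 log2 differences were positive and 7 negative, with a median of 0.035. Gclc, the catalytic subunit of the rate-limiting ligase, was at 0.23 (adjusted P = 0.511 by edgeR) and Gclm at 0.063. Gsr, which reduces oxidized glutathione, was at 0.26 (adjusted P = 0.225 by edgeR), Mat1a at -0.36 and Chac1 at -0.68. The 10 tested peroxidases, glutaredoxins and glyoxalases gave 0 calls by edgeR and 4 unadjusted P under 0.05. DESeq2 called 1 in each of these lists, Cbs (-0.40, adjusted P = 0.0188), which makes cystathionine, and Glrx2 (-0.29, adjusted P = 0.0123), a mitochondrial glutaredoxin.

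Further down the pathway, 2 of 16 genes of mercapturate formation rose and none fell by edgeR. These were Anpep, an aminopeptidase, with 155 and 256 CPM on average (log2 difference 0.73, adjusted P = 0.0198), and Nat8f5, of the Nat8 acetyltransferase family, with 14.8 and 32.0 CPM (1.11, adjusted P = 0.00213). DESeq2 called 3 higher and 1 lower, adding Ggt1, a gamma-glutamyltransferase with 0 to 24 counts per liver (3.16, adjusted P = 0.00506), and Nat8f1 (-0.51, adjusted P = 0.00334, beside 0.0581 by edgeR). Of 11 carriers of organic anions and conjugates, 2 rose and none fell, Abcc4 (log2 difference 2.45, adjusted P = 7.2e-06 by edgeR) and Abcc3 (0.46, adjusted P = 0.0282), both exporters of the sinusoidal membrane, and DESeq2 called the same 2. The median log2 difference was 0.11 over the mercapturate and 0.20 over the carrier list.

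Of 16 regulators of these enzymes 0 passed edgeR, 1 had an unadjusted P under 0.05 and 1 was called by DESeq2, both times Ahr. Ahr, the gene of the aryl hydrocarbon receptor, averaged 39.4 and 64.1 CPM (log2 difference 0.70, adjusted P = 0.109 by edgeR and 0.0145 by DESeq2), and Nfe2l2, the gene of Nrf2, 94.5 and 105 CPM (0.16, adjusted P = 0.534 by edgeR). Of 17 tested Nrf2 targets outside the transferases, 2 rose and none fell by edgeR, Abcc4 and Ephx1, the microsomal epoxide hydrolase (log2 difference 0.61, adjusted P = 0.0182), and DESeq2 added Ugdh, which makes UDP-glucuronic acid (0.52, adjusted P = 0.0156). Abcc4 is also among the carriers above, and the authors count it among the target genes of CAR and PXR. Which regulator raised these genes was not tested. Of the 17, 15 had positive differences, with a median of 0.26, beside 6744 positive of 13219 over all tested genes. An unadjusted P under 0.05 by edgeR was found for 8. Nqo1, the commonly used Nrf2 marker, was at 0.60 (adjusted P = 0.192 by edgeR). Hmox1 was at 0.17, Gclm at 0.063 and Txnrd1 at 0.0079, and Prdx1 (-0.085) and Fth1 (-0.023) were the 2 negative ones.

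No adjacent gene passed the test of edgeR. Within 100 kb of a member lay 24 tested genes that are no members, and 0 passed edgeR in either direction, with an unadjusted P under 0.05 for 5 of them and 1 call, Gm10639, by DESeq2. Ddt, which lies 743 bases from Gstt3 on the same strand, was at -0.24 (adjusted P = 0.34 by edgeR), and Cabin1 beyond it at -0.11.

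Markers of other cell types were checked beside these values. For bile duct cells, in which pi class enzymes are also made, the summed level was 25.3 to 119 CPM in control livers and 35.5 to 193 in MI-883 livers, with 0 of 6 tested markers called by edgeR or DESeq2, 1 with an unadjusted P under 0.05, and all 6 log2 differences positive. Krt19, which defines that cell type, had 10 to 55 counts per liver. Most of the bile duct sum came from Spp1, whose mean was 49.4 CPM without and 87.8 CPM with MI-883. The next highest marker, Sox9, averaged 3.01 and 4.36 CPM, so this sum mainly follows 1 gene. Kupffer (219 to 317 and 175 to 386 CPM), stellate (231 to 374 and 270 to 449 CPM) and endothelial markers (135 to 192 and 153 to 207 CPM) gave 0 of 7 calls each by either tool, with 0, 3 and 2 unadjusted P under 0.05. Their log2 differences were positive for 5, 6 and 6 of the 7 markers, respectively. Lymphocyte markers (3.68 to 6.09 and 4.18 to 5.64 CPM) gave 0 of 7 calls and 0 unadjusted P under 0.05, and blood cell markers 0 of 4 calls and 1. Log2 differences were positive for 3 of the 7 lymphocyte markers and negative for all 4 blood cell markers. Of the pericentral hepatocyte markers 1 of 10 rose, Cyp1a2 (log2 difference 1.76, adjusted P = 1.2e-04 by edgeR), 4 had an unadjusted P under 0.05, and 7 of the 10 log2 differences were positive, with a median of 0.27. DESeq2 also called Glul, which makes glutamine (0.27, adjusted P = 0.0128, beside 0.155 by edgeR), and its groups did not overlap. Of the periportal markers 1 of 10 fell by edgeR and DESeq2, Hal (-0.46, adjusted P = 0.0264 by edgeR), 5 had an unadjusted P under 0.05, and 9 of the 10 log2 differences were negative, with a median of -0.29. Summed levels overlapped for both, at 11015 to 16128 CPM and 11834 to 17686 CPM for the pericentral list and 5104 to 8202 CPM and 5833 to 6578 CPM for the periportal list, control livers first. Of the fat cell markers only Cfd was tested, and it fell (-2.25, adjusted P = 0.00354 by edgeR), while Adipoq had at most 4 counts in a liver. The part of cell composition or liver zone in the values of the 9 genes was not tested.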

How the data were processed

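Deposited values were raw counts of reads per Entrez gene for 10 livers. The authors trimmed paired-end reads of strand-specific libraries with fastp 0.23.0 (per the labels), aligned them to mm10 with STAR and counted them with featureCounts; the annotation and the settings for strand and shared reads are not given in the sources used here. Symbols matched 16644 of 16647 gene IDs of RefSeq GRCm38.p6. The 13219 genes whose counts over all livers summed to 60 or more were fitted with the edgeR 4.0.16 quasi-likelihood test in R 4.3.3 (TMM, condition as the sole term) and adjusted by Benjamini-Hochberg at 0.05; 3428 were left out. Only the control and MI-883 groups were compared. CPM use TMM library sizes. Log2 ratios of members (0.5 counts added) were compared by exact two-sided permutation, with intervals by inversion. Transcripts of GENCODE M21 gave lengths and shared 100-base stretches. Named genes were the 9 members, others of their classes, called genes of pathway and marker lists, adjacent genes, and the 3 genes of at least 10 CPM most correlated with the most abundant member of each class. Members and lists were chosen with earlier results of these data known. The fit was tested on simulated data. Alternatives were DESeq2 1.42.0, other scalings and filters, a replicate block, a surrogate variable (sva 3.50.0), added counts of alike genes and livers left out. No 2 libraries of the same group agreed within sampling noise. P-values rest on the spread of 5 livers per group, each of another animal.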

Additional observations from a re-analysis of the deposited data

Results flagged for a closer look

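Gstt2 in MI-883 replicate 1 was at 128 CPM, apart from the other 4 MI-883 livers, of which the nearest was at 99.0 CPM. It was the 1 of 30 sets of 5 livers in which the gap to the nearest liver exceeded the 95% critical value of Dixon, where chance gives about 1.5. That liver was the one MI-883 liver of Gstt2 near the control median of 131 CPM.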

How the results depend on the processing

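The count of called members (1, Gstt3) was 3 by DESeq2, 2 with 1 surrogate variable, 0 to 2 with 1 liver left out, and 0 without control replicates 3 and 5, an alternative added after seeing the data. It stayed at 1 (Gstt3) under other scalings, other filters, added counts of alike genes and the replicate block. The count over all genes (136) was 463 by DESeq2, 231 with the surrogate variable, 89 with the replicate block, 49 without control replicates 3 and 5, and 62 to 203 with 1 liver left out, moving by over 1.5 times without control replicates 2 (87), 3 (82), 4 (75) or 5 (68) and without MI-883 replicates 2 (70) or 5 (62). Of 10 within-class pairs 3 were called, and 2 to 6 with 1 liver left out, with 6 without control replicate 1 and 5 without control replicate 3. Small differences changed sign: Gsta3 was at 0.0035 with total counts and 0.042 with the surrogate variable, Gsta2 at -0.035 with the surrogate variable and -0.28 without control replicates 3 and 5. With 1 liver left out Gsta2 ranged from -0.052 to 0.32, Gsta3 from -0.095 to 0.039 and the log2 ratio of Gsta2 over Gsta4 from -0.16 to 0.12. The log2 difference of Gstt3 ranged from 0.83 to 1.08 over its alternatives, with adjusted P from 9.5e-06 to 0.0735. Same-numbered livers of the 2 groups did not deviate together (correlations from -0.12 to 0.36, and 0 of 5 control livers most like its own number), so the replicate block rests on a shared number only. Depth did not limit the abundant members; Gm10639 and Gstt4, with few counts, are the least precise. The causes of these shifts were not tested.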
